A study of Mus musculus with 6 samples.

Results

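The genes described here encode the proteins of the cytosolic ribosome in mouse heart. They were chosen by name alone: protein-coding genes called Rpl or Rps followed by digits and at most 1 letter, without Rps27l, together with Rplp0, Rplp1, Rplp2 and Rpsa. This gave 78 of the 35618 genes in the count table, 48 of the large subunit and 30 of the small subunit. The rule also takes in Rpl3l and Rpl39l, which are copies of Rpl3 and Rpl39, and it leaves out genes such as Rps3a1, Rack1 and Fau because of the form of their names.

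Transcripts were measured by stranded mRNA sequencing in 6 heart libraries, 3 from animals with floxed Gsdmd alleles and 3 from animals with a myocardial knockout of Gsdmd, called CKO. Gsdmd encodes gasdermin D, the pore-forming protein of pyroptosis. All animals were 6 to 8 weeks old and all received 20 mg/kg doxorubicin, an anthracycline, into the peritoneum 3 days before the heart was taken, so a response to doxorubicin itself cannot be read from these libraries. The labels name no Cre driver and give no number of animals per library, so a p-value here rests on the spread among libraries, which may be technical. The whole tissue also held cells outside the knockout.

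Ribosomes are built from ribosomal RNA and these proteins, which cells need in matched amounts. The mRNAs of these proteins typically begin with a run of pyrimidines, the 5′ terminal oligopyrimidine tract, through which mTORC1 and LARP1 regulate their translation. Such regulation acts on the use of the mRNA and need not move its level, and mRNA levels are all that was measured here. Heart and skeletal muscle also make RPL3L, a muscle form of RPL3 that takes its place near the catalytic centre of the ribosome.

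Because that tract is the sequence feature for which these genes are known, the bases around their annotated starts were read. RefSeq promoters on GRCm38.p6 were found for 58 of the 78 genes and not for 20, among them Rpl3. A run of at least 8 bases that opened with C and held only C and T, and that began within 10 bases of an annotated start on the sense strand, was present in 23 of the 58 genes (39.7%) and in 9.43% of the 27025 genes with a promoter. A run of at least 5 bases was present in 36 of the 58 (62.1%) and in 34.4% of all. On the opposite strand the share for 8 bases was 6.90% for the ribosomal protein genes and 11.3% for all genes. Annotated starts can lie some bases from the start a cell uses, so a gene without such a run in this window may still carry one. The 30 bases below run from 10 before the annotated start to 20 from it on, with the run in capitals. The first 5 show long runs, Rpl3l shows a short run away from the start, and in Rplp0 and Rps28 no run of at least 5 bases began within 10 bases of the start.
Rpl35, chr2:39005112-39005141, minus strand: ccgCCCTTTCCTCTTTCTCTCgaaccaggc
Rpl15, chr14:18270967-18270996, minus strand: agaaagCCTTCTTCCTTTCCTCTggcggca
Rps18, chr17:33955646-33955675, minus strand: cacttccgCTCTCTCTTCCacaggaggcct
Rps6, chr4:86857348-86857377, minus strand: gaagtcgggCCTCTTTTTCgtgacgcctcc
Rpl28, chr7:4792955-4792984, plus strand: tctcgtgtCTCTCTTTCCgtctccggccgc
Rpl3l, chr17:24727816-24727845, plus strand: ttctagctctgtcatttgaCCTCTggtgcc
Rplp0, chr5:115559457-115559486, plus strand: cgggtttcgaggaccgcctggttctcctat
Rps28, chr17:33824543-33824572, minus strand: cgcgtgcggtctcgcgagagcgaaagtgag

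The ribosomal protein genes were among the abundant transcripts of these hearts and took a similar share of the counts in both genotypes. Their share of all counts was 5.25%, 4.27% and 5.78% in floxed libraries 1 to 3, in that order, and 4.31%, 5.32% and 5.79% in CKO libraries 1 to 3. The means were 5.10% ± 0.768 in the floxed and 5.14% ± 0.757 in the CKO hearts (SD, n = 3 each), and the 2 ranges overlapped almost completely. The library totals lay between 17279147 and 18875902 counts. Gsdmd had 129118, 137849 and 144568 counts in floxed hearts but 1220, 2608 and 2228 in CKO hearts. The direction of this difference matches the labels, which give no size for it.

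Per length, the median level of the 78 genes was 308 FPKM (fragments per kilobase of length, scaled to library size), 285 for the large and 406 for the small subunit, and 69 genes averaged at least 100 FPKM. Rplp1, an acidic protein of the stalk that recruits elongation factors, had the highest level at 3429 FPKM, followed by Rpl36 at 1872 FPKM and Rps15 at 1592 FPKM. The lowest levels belonged to Rpl39l at 0.80 FPKM, Rpl24 at 1.54 FPKM and Rps10 at 1.55 FPKM. Rpl39l is a copy of Rpl39 known from the testis, and its 4 to 22 counts per library allow little precision. Near-identical pseudogenes of Rpl24 and Rps10 held more counts than the genes themselves, as described further on. The lengths behind the deposited FPKM values range widely against the transcripts of the GENCODE M21 annotation, for instance 6270 bases for Rps15a with a transcript of 640, so FPKM orders genes only roughly.

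No ribosomal protein gene passed the test between the genotypes. In edgeR's quasi-likelihood test over 16591 genes with Benjamini-Hochberg adjustment, 0 of the 78 genes passed an adjusted p of 0.05, beside 0.0121% of all genes tested, which is 2 genes. With an unadjusted p under 0.05 the count was again 0 of 78, beside 7.02% of all genes. The lowest unadjusted p was 0.124 and the lowest adjusted p 0.821, both for Rps10. DESeq2 called 0 of the 78 as well, beside 1.47% of all genes, with a lowest adjusted p of 0.664. All 78 genes passed the filter on low counts, and none was at 0 in any library.

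The differences themselves were small. The median log2 fold change, CKO minus floxed, was 0.00076 over the 78 genes, -0.02 over the large subunit and 0.02 over the small subunit, against 0.03 over all genes tested. It was positive for 40 genes and negative for 38. For 68 of the 78 (87.2%) the log2 fold change lay within 0.2 of 0, as it did for 45.6% of all genes tested and for 49.8% of the 1877 genes with a mean of at least 100 CPM (a normalised read count), in which TMM factors set the library sizes. The 95% interval lay within 1 of 0 for 70 genes (89.7%), against 51.8% of all genes and 62.5% of the abundant ones. Those 70 intervals do not reach a change of 1 on the log2 scale in either direction. The median standard error was 0.22.

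**Figure D1:**
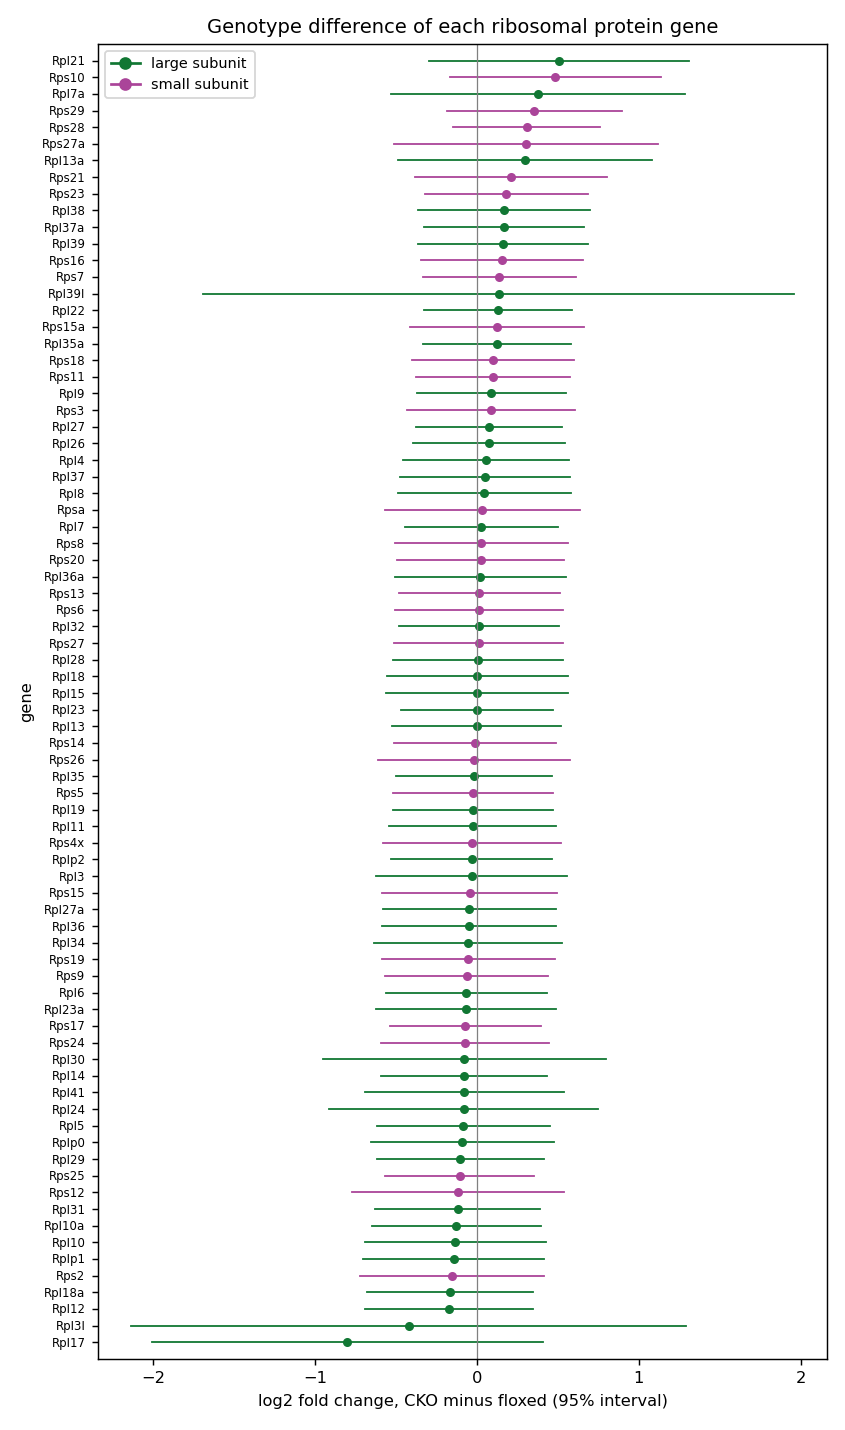
Log2 fold change (CKO minus floxed) of each of the 78 ribosomal protein genes on the horizontal axis, with points for the edgeR estimate, lines for its 95% interval and colours for the subunit, ordered by value. Every interval includes 0, and Rpl17, Rpl3l and Rpl39l have the widest.

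Complete separation of the 3 CKO from the 3 floxed libraries was seen for 4 genes, Rps10, Rps28, Rps29 and Rpl21, all higher in CKO, which is 5.13% of the 78, and for no gene lower in CKO. Over all genes tested 5.82% were higher and 5.98% lower without overlap. Of the 1877 genes with a mean of at least 100 CPM, 58 were higher and 162 lower in this way. Among the 73 ribosomal protein genes that abundant, 3 were higher and 0 lower. Rps28, a small protein at the mRNA exit of the small subunit, had 272, 275 and 343 CPM in the floxed and 371, 373 and 357 CPM in the CKO libraries. Its log2 fold change was 0.31 (SE 0.19), with an adjusted p of 0.854 in edgeR's test. Rps29, a zinc-binding protein of the small subunit, had 576, 558 and 794 CPM in the floxed and 803, 844 and 820 CPM in the CKO libraries, a log2 fold change of 0.36 (SE 0.23). For Rps29 floxed library 3 came close to the CKO libraries, so the gap between the genotypes was narrow. Rpl21 of the large subunit had 294, 121 and 274 CPM against 325, 339 and 316 CPM, and floxed library 2 stood far below the other 5. Its log2 fold change was 0.51 (SE 0.34) and fell by more than 1.5 times, to 0.20, without that library.

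The proteins of the stalk did not separate by genotype. Rplp0, which anchors the stalk, had 1671, 1503 and 1925 CPM in the floxed and 1360, 1660 and 1767 CPM in the CKO libraries, a log2 fold change of -0.09 (SE 0.24). Rplp1 had a log2 fold change of -0.14 (SE 0.24), which was -0.26 without floxed library 2 and -0.041 without floxed library 3, and Rplp2 one of -0.03 (SE 0.21). Floxed library 3 was the highest for all 3 stalk genes.

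Rpl5 and Rpl11 bind Mdm2 when they are free of the ribosome, which links ribosome assembly to p53. Rpl5 had 759, 606 and 813 CPM in the floxed and 600, 697 and 760 CPM in the CKO libraries, a log2 fold change of -0.08 (SE 0.23). Rpl11 had 640, 526 and 716 CPM against 559, 624 and 667 CPM, a log2 fold change of -0.03 (SE 0.22). In both genes floxed library 2 and CKO library 1 held the 2 lowest values, and the genotypes overlapped over most of their range.

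Among the small subunit genes, Rps6, whose protein is the substrate of S6 kinase, had 790, 722 and 881 CPM in the floxed and 697, 810 and 909 CPM in the CKO libraries, a log2 fold change of 0.01 (SE 0.22). Rps19, the gene most often mutated in Diamond-Blackfan anaemia in humans, had a log2 fold change of -0.05 (SE 0.23). Rps27a, made as a fusion with ubiquitin, had 441, 203 and 283 CPM against 357, 495 and 292 CPM, with a log2 fold change of 0.30 (SE 0.34). It was 0.071 without floxed library 2, 0.065 without CKO library 2, 0.65 without floxed library 1 and 0.46 without CKO library 3. Its values spread over 2.44-fold within the 6 libraries, more than those of most members. In 70 of the 78 genes the highest library held less than 2 times the CPM of the lowest. Rps23 and Rps21 of the small subunit had log2 fold changes of 0.18 (SE 0.21) and 0.21 (SE 0.25), and Rpl13a and Rpl12 of the large subunit 0.30 (SE 0.33) and -0.17 (SE 0.22). Single libraries moved these values by over 1.5 times. Rps23 was 0.093 without floxed library 2. Rps21 was 0.039 without floxed library 2 and 0.42 without floxed library 3. Rpl13a was 0.14 without floxed library 2, 0.55 without CKO library 1 and -0.032 without CKO library 3. Rpl12 was -0.080 without CKO library 1 and -0.26 without floxed library 2.

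Rpl7, Rpl19 and Rpl27, all of the large subunit, varied least. Rpl7 had 857, 814 and 914 CPM in the floxed and 892, 901 and 842 CPM in the CKO libraries, an SD of 0.064 on the log2 scale over all 6. Rpl19 had an SD of 0.093 and Rpl27 one of 0.096. Over the 78 genes the median SD was 0.173, against 0.372 for all genes tested and 0.333 for those with at least 100 CPM.

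Much of what spread there was belonged to whole libraries. Relative to the floxed mean of each gene, the median level of the 78 genes was -0.0011, -0.18 and 0.17 on the log2 scale in floxed libraries 1 to 3, and -0.11, 0.04 and 0.10 in CKO libraries 1 to 3. Floxed library 2 was the lowest of the 6 for 45 genes and CKO library 1 for 22, and both were the 2 lowest for 42 genes. Floxed library 3 was the highest for 47 genes and CKO library 3 for 16. After subtracting each library's median, the median SD of a gene was 0.111, and 63 genes stayed under 0.2. Libraries of both genotypes thus stood at the low and at the high end.

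**Figure D2:**
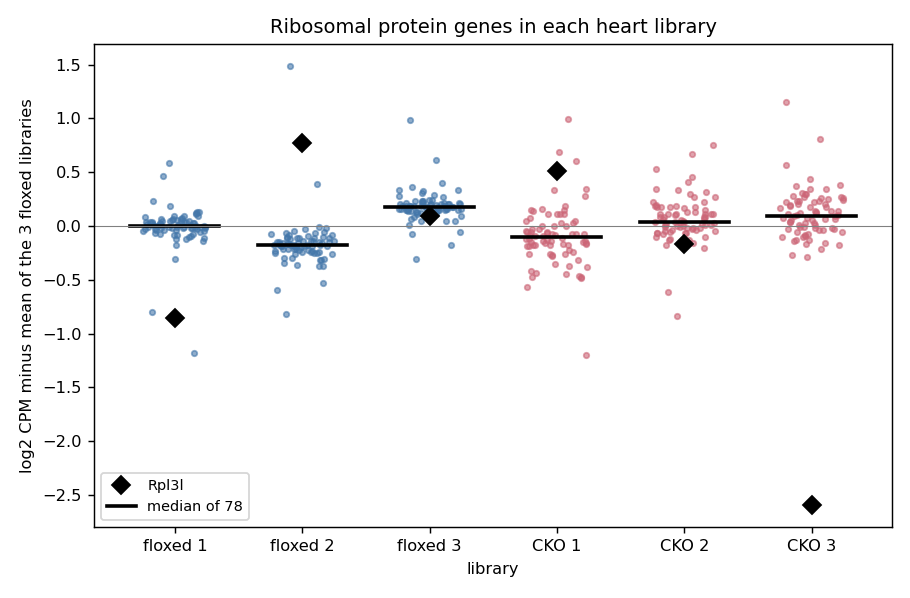
Level of each ribosomal protein gene in each library, as the log2 CPM relative to that gene's floxed mean, with 1 point per gene, a bar at the median of the 78 genes and a diamond for Rpl3l. The medians run from -0.18 in floxed library 2 to 0.17 in floxed library 3, and Rpl3l lies high in floxed library 2 and CKO library 1, where the median is low.

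The cell type markers differed between the same libraries. Their sums, here and below, are CPM on plain library totals, without the TMM factors used for single genes. The summed level of 12 macrophage and monocyte markers, all detected, was 7363, 3472 and 6740 CPM in the floxed and 2097, 6665 and 7051 CPM in the CKO libraries. That of 10 fibroblast markers, all detected, was 13144, 6018 and 10338 CPM against 4680, 6543 and 15947 CPM. Both sums were lowest in floxed library 2 and CKO library 1. The 10 endothelial markers, all detected, went another way, with 2337, 2549 and 2270 CPM in the floxed and 4524, 2762 and 1203 CPM in the CKO libraries. The 12 cardiomyocyte markers, all detected, summed to 23393, 34044 and 29209 CPM in the floxed and 29656, 24961 and 14131 CPM in the CKO libraries, with the highest sums in those same 2 libraries. The mitochondrially encoded genes also took their largest shares there, 11.2% in floxed library 2 and 18.1% in CKO library 1, against 5.48% to 10.2% in the other 4. In such whole tissue, fewer cells of a type and less RNA per cell cannot be told apart, and the part of these measures in the level of the ribosomal protein genes was not tested. Other markers separated CKO libraries 2 and 3 from the rest, as with 15 T and NK cell markers at 251, 100 and 177 CPM against 196, 1089 and 1174 CPM. Likewise 12 cell division markers summed to 117, 62.9 and 102 CPM against 68.3, 428 and 471 CPM. The 8 erythroid markers summed to 5.49, 11.3 and 15.0 CPM against 45.1, 352 and 444 CPM. Their sum was thus above the floxed range in CKO library 1 too. Of the 8 erythroid markers, 5 were tested. All 5 were higher in CKO without overlap, beside 5.82% of all genes tested, with a median log2 fold change of 4.97. In edgeR's test 0 of these 5 were called, beside 0.0121% of all genes tested. With floxed sums this low, the CKO libraries may have carried erythroid markers past the filter on low counts. The ribosomal protein genes had median levels of 0.04 and 0.10 in CKO libraries 2 and 3, inside the range of the floxed libraries.

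Rpl3 and Rpl3l, the general and the muscle form of the same protein, varied differently across the libraries, and neither passed the test between genotypes. Rpl3 (ENSMUSG00000060036, chromosome 15) had 262.93, 172.88 and 276.99 FPKM in the floxed and 182.2, 247.89 and 275.79 FPKM in the CKO libraries, with means of 238 ± 56.5 and 235 ± 48.0 (SD, n = 3 each). Its log2 fold change from the counts was -0.03 (SE 0.25, 95% interval -0.62 to 0.56), with an adjusted p of 0.993 in edgeR's test. Rpl3 followed the other ribosomal protein genes, with its lowest values in floxed library 2 and CKO library 1.

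Rpl3l (ENSMUSG00000002500, chromosome 17) had 23.33, 67.31 and 43.83 FPKM in the floxed and 53.43, 37.18 and 7.46 FPKM in the CKO libraries, with means of 44.8 ± 22.0 and 32.7 ± 23.3 (SD, n = 3 each). Its highest library held 10.3 times the CPM of its lowest, the widest range of the 78 genes. The log2 fold change was -0.42 (SE 0.73, 95% interval -2.14 to 1.29), with an adjusted p of 0.958 in edgeR's test. It was -0.76 in limma-voom, -0.69 and -0.73 in limma on log2 FPKM with pseudocounts of 1 and 0.1, and -0.77 with the replicate number as a block. It turned to 0.03 without floxed library 2 and to 0.06 without CKO library 3, and was -0.75 without floxed library 1 and -1.09 without CKO library 1. The order of the libraries by Rpl3l was that of the summed cardiomyocyte markers in all 6 places, from floxed library 2 down to CKO library 3. The summed level of 12 skeletal muscle markers, all detected, was 965, 808 and 991 CPM in the floxed and 717, 527 and 430 CPM in the CKO libraries, lower in every CKO library. Of the 7 of these that were tested, 6 were negative and 1 positive, with values from -3.44 to 0.63 around a median of -0.41. In edgeR's test 1 of the 7 was called, beside 0.0121% of all genes tested. It was Tnnt3, with a log2 fold change of -3.44 (SE 0.25) and an adjusted p of 0.0192. Of the 7, 3 (42.9%) were lower in CKO without overlap and 0 higher, beside 5.98% and 5.82% of all genes tested. In edgeR's test 3 of the 7 also had an unadjusted p under 0.05, beside 7.02% of all genes tested. The part of either kind of muscle marker in the Rpl3l level was not tested.

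Rpl3 exceeded Rpl3l in every library, by a ratio of FPKM values of 11.3, 2.57 and 6.32 in the floxed and 3.41, 6.67 and 37.0 in the CKO libraries. The mean log2 ratio was 2.51 ± 1.08 in the floxed and 3.24 ± 1.77 in the CKO hearts (SD, n = 3 each). The difference of 0.73 had a two-sided p of 0.6 in an exact permutation test, for which 0.1 is the smallest possible value. Without CKO library 3 the difference was -0.25. The deposited FPKM values correspond to lengths of 3175 bases for Rpl3 and 1643 for Rpl3l, where the GENCODE M21 transcripts have 1351 and 1033, so the size of the ratio depends on those lengths while its differences between libraries do not.

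Reads of the pair could be told apart by sequence within the single M21 transcript compared for each gene. Parts of either mRNA outside that transcript were not compared. These transcripts of Rpl3 and Rpl3l were 75.3% identical over 685 aligned columns, with no shared stretch of 50 bases and a longest identical run of 17. The Rpl3 transcript shares 85.6% of its 50-base stretches with other genes, though none with that of Rpl3l, while the Rpl3l transcript shares 0%.

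Another pair with a general and a muscle form, the elongation factors Eef1a1 and Eef1a2, was set beside it. The FPKM ratio of Eef1a1 to Eef1a2 was 11.9, 4.18 and 6.93 in the floxed and 6.75, 15.7 and 14.1 in the CKO libraries, lowest in floxed library 2 as for Rpl3 and Rpl3l. The mean log2 ratios differed by 0.71, with an exact two-sided permutation p of 0.3. The log2 fold change was 0.11 (SE 0.26) for Eef1a1 and -0.64 (SE 0.38) for Eef1a2, with adjusted p of 0.973 and 0.826 in edgeR's test.

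**Figure D3:**
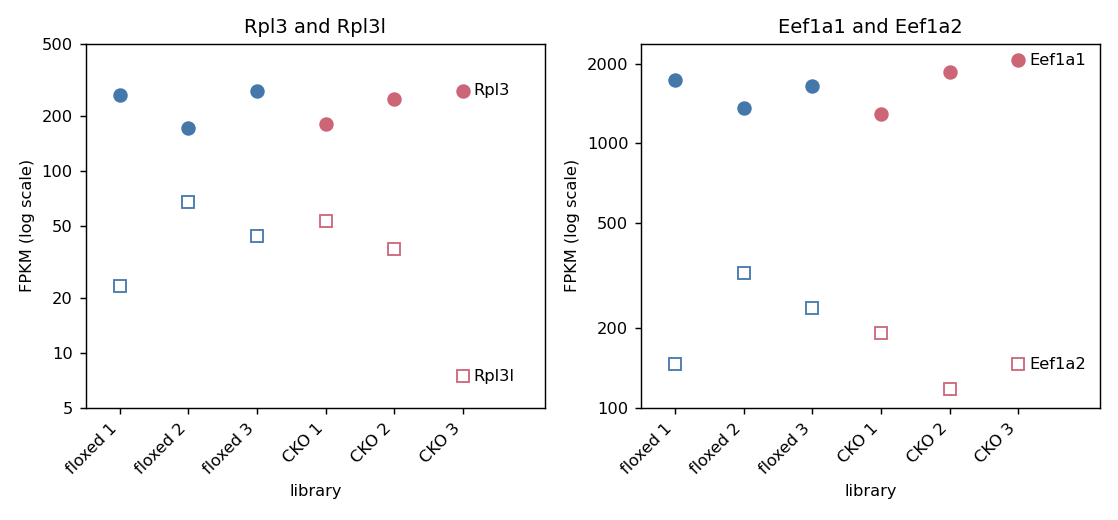
FPKM on a log axis in each library for Rpl3 with Rpl3l and for Eef1a1 with Eef1a2, filled circles for the general and open squares for the muscle form, blue for floxed and red for CKO. Rpl3l runs from 7.46 to 67.31 FPKM while Rpl3 stays between 172.88 and 276.99 FPKM.

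Ribosomal protein genes have many processed pseudogenes, copies that lack introns, and reads that match both can be counted on either. Judged by 1 transcript each, the median gene shared 49.2% of its 50-base stretches with other genes of the M21 annotation. Of the 78, 38 shared more than 50%. For 62 genes there was at least 1 pseudogene in the table, 174 in all, with at least 50% of its own 50-base stretches in the gene. These held 355360 counts, 5.96% of the sum over the genes and their pseudogenes, but over 20% of the sum for 10 genes. The treatment of reads with several matches is not stated in the labels or headers.

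For a few genes the value changed with the counts on pseudogenes. Rpl17, which lines the exit tunnel of the large subunit, had 2986, 3956 and 9848 counts in the floxed and 1856, 2885 and 5285 in the CKO libraries. With its pseudogenes added it had 12786, 10207 and 15377 against 9612, 13130 and 14400 counts. The log2 fold change of Rpl17, -0.80 (SE 0.51, adjusted p 0.854 in edgeR's test) and the lowest of the 78, became -0.07, and its SD over the libraries fell from 0.78 to 0.17 on the log2 scale. On its own counts it was -0.16 without floxed library 3, the library with the highest count, and -1.20 without CKO library 3.

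Rps10, a protein near the mRNA entry of the small subunit, had 56, 46 and 61 counts in the floxed and 76, 71 and 81 in the CKO libraries, while Rps10-ps2 had 3203, 2327 and 3194 against 2117, 3247 and 3682. Pseudogenes held 97.8% of the sum. Its log2 fold change of 0.48 (SE 0.28) was 0.30 in limma on log2(FPKM + 1) and 0.04 with the pseudogenes added, and the separation of the genotypes in its own counts rests on at most 81 counts per library. For Rpl24 pseudogenes held 90.1% of the sum, and its log2 fold change was -0.08 (SE 0.35) alone and -0.09 with them. The sum for Rpl24 was still low, at 14.4 to 18.6 CPM per library.

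The SD of Rpl30 fell from 0.47 to 0.21 with its pseudogenes added, and that of Rpl7a from 0.54 to 0.28. Rpl7a had 139, 122 and 108 CPM in the floxed and 244, 79.7 and 155 CPM in the CKO libraries, and its log2 fold change moved from 0.38 (SE 0.39) to 0.25. On its own counts it was -0.080 without CKO library 1 and 0.70 without CKO library 2. For Rpl21 pseudogenes held 19.9% of the sum. With them its log2 fold change moved from 0.51 (SE 0.34) to 0.34, and its SD from 0.56 to 0.38. In 9 of the 10 genes with over 20% of the sum on pseudogenes the SD fell. Among all 62 genes with such pseudogenes it fell in 32 and rose in 30.

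**Figure D4:**
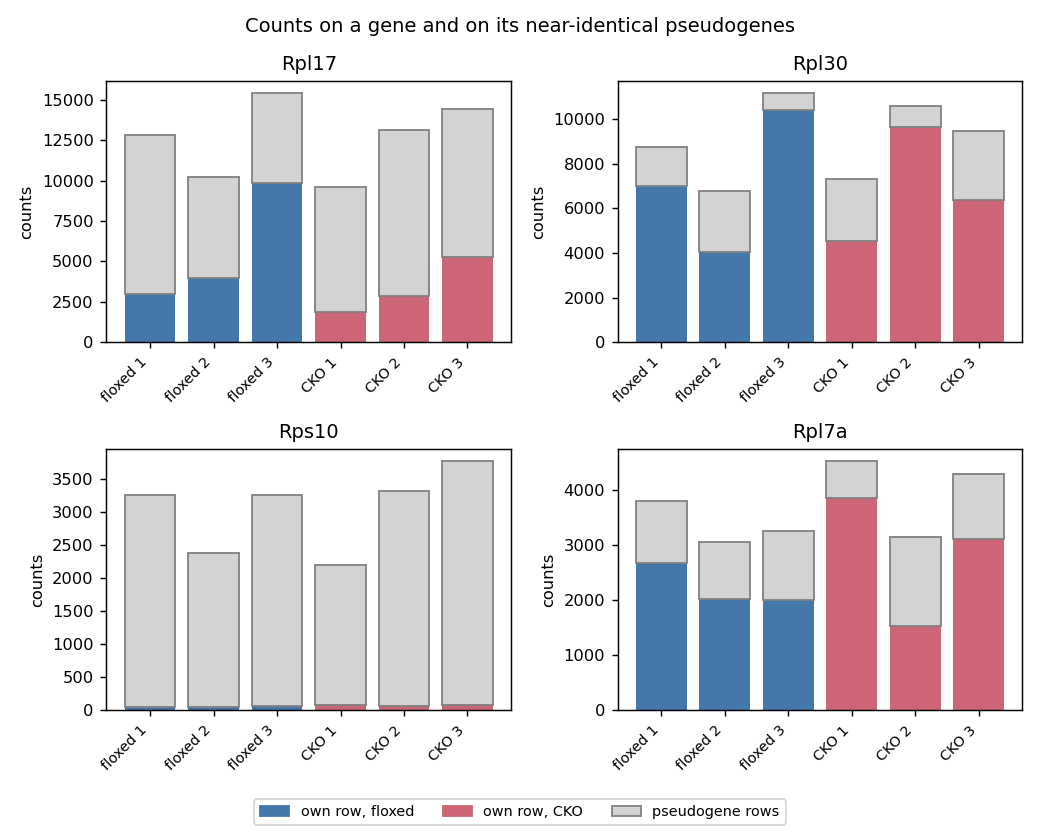
Counts in each library on the gene itself (blue for floxed, red for CKO) and stacked above it those on its near-identical pseudogenes (grey), for Rpl17, Rpl30, Rps10 and Rpl7a. For Rpl17 the gene's own count runs from 1856 to 9848 while the whole bar runs from 9612 to 15377, and nearly all of the Rps10 bar is grey.

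The other genes of the pathway were looked at by list. Some genes stand in more than 1 list, among them Eef1a1, Eef2, Pabpc1, Rack1, Npm1, Tpt1 and Sesn2, so the lists are not separate observations. In each of the 10 lists on translation, 0 genes passed an adjusted p of 0.05 in edgeR's test, beside the 0.0121% of all genes. Of 8 ribosomal protein genes outside the naming rule, 2 had a positive and 6 a negative log2 fold change, with a median of -0.10. Rpl22l1, a copy of Rpl22, had a log2 fold change of -0.22 (SE 0.16). Among 61 ribosome biogenesis factors, 27 were positive and 34 negative with a median of -0.04. Mdn1, an ATPase that strips assembly factors from the large subunit, had 20.3, 17.0 and 15.1 CPM in the floxed and 28.2, 23.7 and 29.1 CPM in the CKO libraries, a log2 fold change of 0.63 (SE 0.18) with an adjusted p of 0.578 in edgeR's test. It was the 1 factor of the 61 (1.64%) with an unadjusted p under 0.05, a smaller share than the 7.02% of all genes tested. The 17 genes of the RNA polymerase I machinery, which transcribes ribosomal RNA, had a median of 0.04 with 9 positive and 8 negative.

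For the 35 translation initiation factors the median was -0.09, and 9 were positive and 26 negative. The lowest was Eif6, which keeps the subunits apart, at -0.50 (SE 0.23), with edgeR's adjusted p at 0.750. The 10 elongation factors had a median of -0.05, with 3 positive and 7 negative. The 11 other genes with a known terminal oligopyrimidine tract had a median of 0.03, with 7 positive and 4 negative. The 12 tested host genes of small nucleolar RNAs had a median of -0.13, with 3 positive and 9 negative, and Snhg15 was lowest at -0.42 (SE 0.22). Against these, all genes tested had a median of 0.03, and 53.8% were positive. The 1877 genes with a mean of at least 100 CPM had a median of -0.05, and 43.5% were positive.

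The 21 genes of mTORC1 and its control of these mRNAs had a median of -0.0093, with 8 positive and 13 negative, and 3 of the 21 (14.3%) had an unadjusted p under 0.05, beside 7.02% of all genes tested. Eif4ebp1, the repressor of cap-dependent translation that mTORC1 inactivates, had 157, 256 and 234 CPM in the floxed and 152, 95.1 and 123 CPM in the CKO libraries. Its log2 fold change was -0.81 (SE 0.27), with an adjusted p of 0.614 in edgeR's test. Sesn2, a stress-induced inhibitor of mTORC1, had 41.9, 34.6 and 40.7 CPM against 27.4, 18.7 and 31.8 CPM, a log2 fold change of -0.59 (SE 0.22) with an adjusted p of 0.665. In both genes all CKO libraries lay below all floxed libraries, narrowly so for Eif4ebp1. Among the 21 genes, 3 were lower and 1 was higher in CKO without overlap. Over all genes tested 5.98% were lower and 5.82% higher in this way. Mycn was the other gene of the 3 with an unadjusted p under 0.05, at 1.29 (SE 0.46) and a mean of 0.887 CPM in the floxed and 2.19 CPM in the CKO hearts.

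The 11 genes that link ribosomal stress to p53, of which Rpl5, Rpl11 and Rpl23 are among the 78, had a median of -0.03, with 5 positive and 6 negative. Cdkn1a, a p53 target that stops the cell cycle, had 458, 512 and 535 CPM in the floxed and 494, 197 and 266 CPM in the CKO libraries, a log2 fold change of -0.65 (SE 0.35). CKO library 1 lay among the floxed libraries for Cdkn1a. The 15 genes of ribosome quality control had a median of 0.02, with 8 positive and 7 negative.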

How the data were processed

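Raw read counts for each gene were deposited for 6 libraries, and the authors also gave FPKM values. The submitters' processing notes list, without their roles, featureCounts 1.6.2, HISAT2 2.1.0, GATK 4.0.11.0, Cufflinks, DESeq2 1.22.1, fastp 0.19.3 and StringTie 1.3.4d. The table names no build for its gene positions, so none of them are printed.

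Counts were tested with edgeR 4.0.16 in R 4.3.3 (TMM, filterByExpr with a minimum count of 10, robust quasi-likelihood F test, genotype as the only term, Benjamini-Hochberg over 16591 genes holding 99.8% of the counts). The biological coefficient of variation was 33.3%. Standard errors come from the F statistic. The test was first run on simulated counts. Alternatives used DESeq2 1.42.0, limma 3.58.1 on voom values or deposited log2 FPKM, other filters, library sizes, a replicate block and each library left out. Transcripts were compared in Python 3.11.15 with Biopython 1.88, and figures drawn with matplotlib 3.10.9.

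The member genes, the lists and the rule for named genes were chosen with earlier results of these data known. The rule named Rpl3, Rpl3l, copies ending in l, the 10 smallest p, and the extremes of fold change, level and spread. Rpl5, Rpl11, Rps6, Rps19, Rplp0, Rplp2, Rpl30 and the genes whose starts are printed, and adding pseudogenes by shared 50-base stretches, were chosen after values were seen. A gene of the lists is not reported here.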

Additional observations from a re-analysis of the deposited data

How the results depend on the processing

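The count of ribosomal protein genes called was 0 under each of the 19 alternatives, and their median log2 fold change ran from -0.08 to 0.07 with 1 library left out and from -0.02 to 0.01 under the others. Without CKO library 1, and likewise without CKO library 2, 1 of the 78 genes had an unadjusted p under 0.05, and 0 had under the rest. The number of all genes called, 2 in edgeR, was 10 without a filter, 243 in DESeq2, 1 in limma-voom, 1 in limma on log2(FPKM + 1), 0 with the replicate block and 0 to 500 with 1 library left out, 500 of them without CKO library 1. The replicate numbers share no stated origin: same-numbered libraries correlated at -0.57, -0.31 and 0.04 in their deviations, and 1 of 6 correlated best with its own number. With 1 library left out, the log2 fold change ranged from -0.20 to 0.071 for Rpl3, -1.09 to 0.062 for Rpl3l, -0.31 to 1.21 for Rpl39l, -0.080 to 0.70 for Rpl7a, -0.032 to 0.55 for Rpl13a, -0.20 to 0.056 for Rpl36, -0.15 to 0.056 for Rps15, -0.23 to 0.13 for Rpl24, -0.016 to 0.054 for Rpl7 and -0.10 to 0.019 for Rpl19, so these directions rest on single libraries, and the difference in the log2 ratio of Rpl3 to Rpl3l from -0.25 to 1.47. The difference in the share of counts ranged from -0.38 to 0.46 percentage points. The cause of these changes was not tested. The median standard error of 0.22 limits what 3 libraries a group can show, and low-count genes such as Rpl39l allow less.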
